A study of Nicotiana tabacum with 9 samples.

Results

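Pollen from *ATG5*-silenced tobacco was compared with wild-type (WT) pollen across the transcriptome. The comparison took every library that the labels give to either genotype, 3 of each, which made 6 of the 9 libraries of the series, and every gene ID with at least 0.5 FPKM (a level relative to the total of a library and corrected for transcript length) in 3 or more of these 6 libraries. This left 25734 of 76785 gene IDs to be tested, of which 19119 carried an annotated gene ID and 6615 were transcripts without an annotation, which the tables identify by a running number. The pollen was bicellular pollen of *Nicotiana tabacum* cv Petite Havana SR1, from plants of a glasshouse held at 25 ± 2 °C under a 12 h day, and the silenced plants carried an RNA interference construct against *ATG5*. WT plants carried no construct by their label. The remaining 3 libraries came from *ATG2* RNA interference plants and are used below only where they are named. The promoter that drives the constructs, the number of independent lines and the number of plants pooled in a library are not given in the sources used here. The design text calls the 3 samples of a genotype independent replicates, so the p-values below measure the spread between these 3 libraries.

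Autophagy carries cytoplasmic material into the vacuole inside double-membrane vesicles called autophagosomes. ATG5 is joined to ATG12 by a ubiquitin-like conjugation reaction, and the conjugate helps to attach ATG8 to the lipid of the growing membrane, while ATG2 works as a lipid transfer protein at the edge of the same membrane. A bicellular pollen grain holds a large vegetative cell, which will form the pollen tube, and a generative cell inside it. The vegetative cell stores many transcripts for germination and tube growth before it is shed, among them transcripts for wall enzymes, actin-binding proteins and vesicle traffic.

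Before the test, each library was divided by a scaling factor, the median over 14463 genes of the ratio of its value to the geometric mean, because a few very abundant transcripts took unequal parts of the total. The factors were 0.756, 0.791 and 0.797 in the *ATG5*-silenced libraries and 0.981, 0.978 and 1.04 in WT. A gene is called higher or lower where limma gave an adjusted p under 0.05 and the difference on the log2(scaled FPKM + 0.5) scale was over 2-fold. Without the scaling, the median log2 difference of all tested genes moved by -0.28, from -0.02 to -0.30, so changes are read relative to that median. Principal component 1 held 74.7% of the variance and placed all *ATG5*-silenced libraries (84.8 to 94.3) apart from all WT libraries (-95.7 to -78.0). Pearson correlations of the log2 values were 0.959 to 0.969 within the *ATG5*-silenced group, 0.969 to 0.973 within WT and 0.839 to 0.872 between the groups. In bulk pollen, fewer cells of a type and less RNA per cell cannot be told apart. The paper gives a lower bound on the read pairs of each library, but the reads behind a value are unknown, since the tables hold FPKM and no counts.

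*ATG5* (GeneID:107810645) stood at 0.18, 0.23 and 0.10 FPKM in the *ATG5*-silenced libraries and at 1.04, 1.5 and 1.6 FPKM in WT. Every silenced library lay below every WT library, with means of 0.17 ± 0.066 and 1.38 ± 0.30 FPKM (SD, n = 3 each). An exact two-sided permutation test of the means gave p = 0.1, the smallest that 3 against 3 libraries can give, and the limma fit gave a log2 change of -1.38 (SE 0.19, adjusted p = 0.00105). The level of this transcript was low in WT pollen too. In the *ATG2*-silenced libraries it was 1.3, 1.8 and 1.5 FPKM, within or just above the WT range. *ATG2* (GeneID:107801867) had 0.65, 0.58 and 0.57 FPKM in *ATG5*-silenced pollen against 1.18, 1.04 and 0.9 in WT. These groups did not overlap, but the log2 change of -0.28 did not pass the test (adjusted p = 0.202), whereas it passed on FPKM as deposited (-0.48, adjusted p = 0.0284).

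The other genes of the autophagy machinery changed less than *ATG5*. Of 11 tested genes of that list, *ATG5* included, 4 were lower and 1 was higher at an adjusted p under 0.05, and the median log2 change was -0.43, beside -0.02 for all tested genes. Over all tested genes, 24.3% were lower and 27.2% higher by the same rule. The lists were written from named genes alone, which leaned lower. Of the 420 tested genes with a name, 155 were lower and 76 higher, with a median of -0.28, so the autophagy list lay close to the named genes as a whole. *JOKA2*, a cargo receptor of selective autophagy in tobacco, had 0.46, 0.48 and 0.69 FPKM against 1.42, 1.76 and 1.3 in WT. It fell with a log2 change of -0.74 (adjusted p = 0.0144), which became 0.0501 when WT replicate 2 was left out. *ATG13b*, a regulatory subunit of the kinase that starts autophagosome formation, was the member that rose, with 2.45, 2.74 and 2.8 FPKM against 2.0, 1.84 and 1.7 (log2 change 0.74, adjusted p = 0.00412). *ATG18d*, whose family binds phosphoinositides, had 0.46, 0.2 and 0.49 FPKM against 1.11, 1.11 and 0.9 (log2 change -0.66, adjusted p = 0.0373). *VPS34*, the lipid kinase of the same pathway, had 1.8, 1.62 and 1.19 FPKM against 3.29, 2.66 and 3.5. Its adjusted p of 0.0363 rose to between 0.0710 and 0.107 when *ATG5*-silenced replicate 2 or 3 or WT replicate 1 or 3 was left out, and *ATG18d* was lost without *ATG5*-silenced replicate 2 (adjusted p = 0.0877). Both copies of *ATG6*, *ATG9*, *ATG10* and *VPS15* did not pass, with log2 changes from -0.52 to -0.11. On FPKM as deposited both copies of *ATG6* (-0.76 and -0.59), *ATG9* (-0.56) and *VPS15* (-0.63) passed as lower, and the list then held 9 lower and 1 higher of 11. All of these transcripts lay under 10 FPKM in WT.

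Across the whole transcriptome, 3956 genes were called higher in *ATG5*-silenced pollen (15.4% of those tested) and 2162 were called lower (8.4%). By adjusted p alone 6987 were higher and 6258 lower, which is 51.5% of the tested genes in either direction. The libraries of both groups did not overlap for 62% of the tested genes. Rises were also larger than falls, with a median log2 size of 1.69 among genes called higher and 1.31 among genes called lower. Of the genes called higher, 2507 rose 2- to 4-fold, 1270 rose 4- to 16-fold and 179 rose 16-fold or more, and of those called lower the counts were 1907, 235 and 20. The split between rises and falls depended on the scaling. Of the called genes, 64.7% were higher after the median scaling, 54.2% after quantile normalization, 46.7% when the libraries were brought to equal totals (TPM), and 42.1% on FPKM as deposited. No gene called in one direction was called in the other under any of these scalings, and 2860 of the 3956 higher and all 2162 lower calls were shared with the fit on FPKM as deposited.

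**Figure D1:**
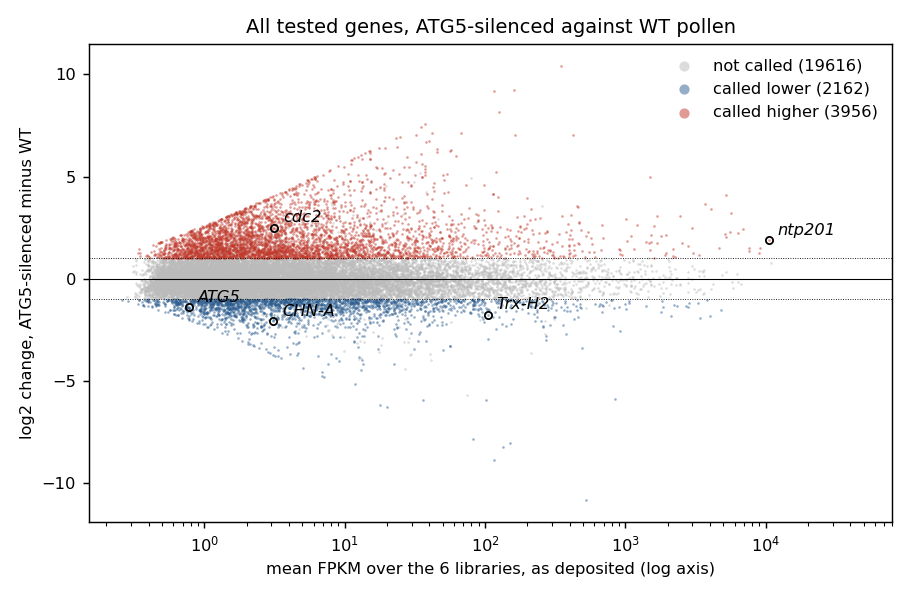
Each point is 1 of 25734 tested genes, with its mean FPKM over the 6 libraries as deposited on the x axis (log scale) and its log2 change, *ATG5*-silenced minus WT after scaling, on the y axis. The dotted lines mark a 2-fold difference, genes called higher (3956) are red, genes called lower (2162) are blue, and changed genes lie at every level of expression.

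Annotated genes and unannotated transcripts behaved differently. Among annotated genes, 1703 (8.91%) were called higher and 1561 (8.16%) lower, so that both directions were nearly balanced under the median scaling. The split of annotated genes was not counted under other scalings, so this balance holds for the median scaling alone. Over all tested genes, 3956 higher and 2162 lower calls became 2861 and 3935 on FPKM as deposited. Among unannotated transcripts, 2253 (34.1%) were called higher and 601 (9.09%) lower. The median log2 change was -0.11 for the annotated genes and 0.56 for the unannotated ones. Calls of a rise also became more frequent with level among annotated genes, from 3.01% of those under 1 FPKM to 23.3% of those at 1000 FPKM or more, while falls went from 4.39% to 10.2%. The level was the mean scaled FPKM over all 6 libraries, so a rise itself moves a gene to a higher level. The pseudocount also shrinks changes of low genes, so this trend is in part built in.

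The most abundant transcripts took a larger share of the total in *ATG5*-silenced pollen. The 10 most abundant genes of a library held 12.6%, 12.3% and 12.5% of its FPKM in *ATG5*-silenced pollen and 7.87%, 7.65% and 7.22% in WT, and for the 100 most abundant the shares were 42.8%, 41.5% and 42.3% against 35.6%, 35.8% and 34.9%. For the 100 most abundant the means were 42.2 ± 0.63% and 35.4 ± 0.48% (SD, n = 3 each), with no overlap and an exact permutation p = 0.1, the smallest possible. The lists of the 100 most abundant genes shared 66 genes between the groups. Of the 100 in *ATG5*-silenced pollen, 42 were called higher and 3 lower. Of the 100 in WT, 15 were called higher and 16 lower. Ranking by the level in a group favours genes that are higher in that group, so these counts follow in part from the choice. Among all tested genes, 15.4% were called higher and 8.4% lower.

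**Figure D2:**
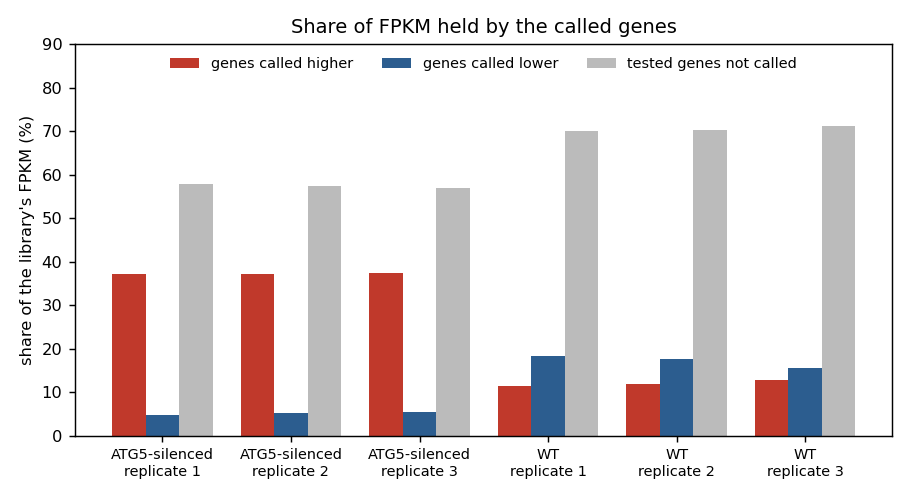
Bars give the share of each library's FPKM (y axis, percent, from 0) held by the genes called higher, the genes called lower and the tested genes not called, for the 3 *ATG5*-silenced and 3 WT libraries. Genes called higher held 37.1% to 37.3% of the FPKM of silenced libraries against 11.3% to 12.9% of WT libraries, and genes called lower held 4.77% to 5.35% against 15.6% to 18.4%, a description that follows from the calls.

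The tobacco *ntp* genes, known as late pollen transcripts, were among the most abundant transcripts of both groups and rose. *ntp201* (GeneID:107815818) was the most abundant transcript of *ATG5*-silenced pollen, with 16265, 15306 and 15180 FPKM against 4959, 5282 and 6048 in WT. Its log2 change was 1.88 (SE 0.078, adjusted p = 9.44e-06), and the lowest silenced library was over the highest WT library by a wide margin. *ntp805* had 11725, 11706 and 11167 FPKM against 5815, 6253 and 6741, a log2 change of 1.24 (SE 0.066, adjusted p = 2.37e-05). *ntp101*, the most abundant WT transcript, had 13376, 12388 and 11416 FPKM against 8892, 9425 and 9438. Its groups did not overlap and its log2 change was 0.78 (adjusted p = 0.000406), but under quantile normalization, which gives every library the same top values, it turned to -0.26 (adjusted p = 0.00182).

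Most of the other leading transcripts had an annotated ID without a gene name in the reference used. GeneID:107796742 showed the widest gap among the 10 most abundant of *ATG5*-silenced pollen, with 8945, 9244 and 10777 FPKM against 667, 745 and 724 in WT (log2 change 4.11, SE 0.082). GeneID:107782692 followed with 8569, 10730 and 10277 FPKM against 1105, 1247 and 1767 (log2 change 3.22, SE 0.15). For both, even the lowest silenced library was several times the highest WT library. GeneID:107801067 had 12263, 10670 and 10609 FPKM against 2457, 2621 and 2925 (log2 change 2.42), and GeneID:107766889 had 12410, 12284 and 12988 against 5253, 5606 and 5876 (log2 change 1.53). All 10 leading genes of *ATG5*-silenced pollen rose at an adjusted p under 0.05 after the median scaling, 9 of them over 2-fold. Their ranking by level in the silenced libraries favours genes that rose, so these counts follow in part from the choice. Among all tested genes, 27.2% were higher by adjusted p and 15.4% were called higher.

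Of the 10 most abundant WT transcripts, *ntp101* and *ntp805* rose as given above and 3 were called lower. The ranking by WT level favours genes that fell, and 8.4% of all tested genes were called lower. GeneID:107817126 had 1080, 1139 and 1190 FPKM in *ATG5*-silenced pollen against 6327, 6031 and 4602 in WT (log2 change -1.95, SE 0.14, adjusted p = 7.59e-05). GeneID:107817512 had 1344, 1457 and 1603 against 6966, 6785 and 6073 (log2 change -1.81), and GeneID:107803115 had 2026, 2001 and 2090 against 8365, 7967 and 6377 (log2 change -1.53). For each of these 3 genes the highest silenced library was under the lowest WT library. Among the other leading WT genes, GeneID:107783954 fell by less (log2 change -0.47, adjusted p = 0.0128), and GeneID:107769110, GeneID:107825053, GeneID:107767914 and GeneID:107762241 did not pass, with log2 changes between -0.27 and 0.22. This depended on the scaling, since the first 3 of them passed as lower on FPKM as deposited (-0.62, -0.53 and -0.53), with TPM (-0.55, -0.45 and -0.46) and after quantile normalization (-1.01, -0.87 and -0.90), and in the last GeneID:107762241 turned to -0.54.

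**Figure D3:**
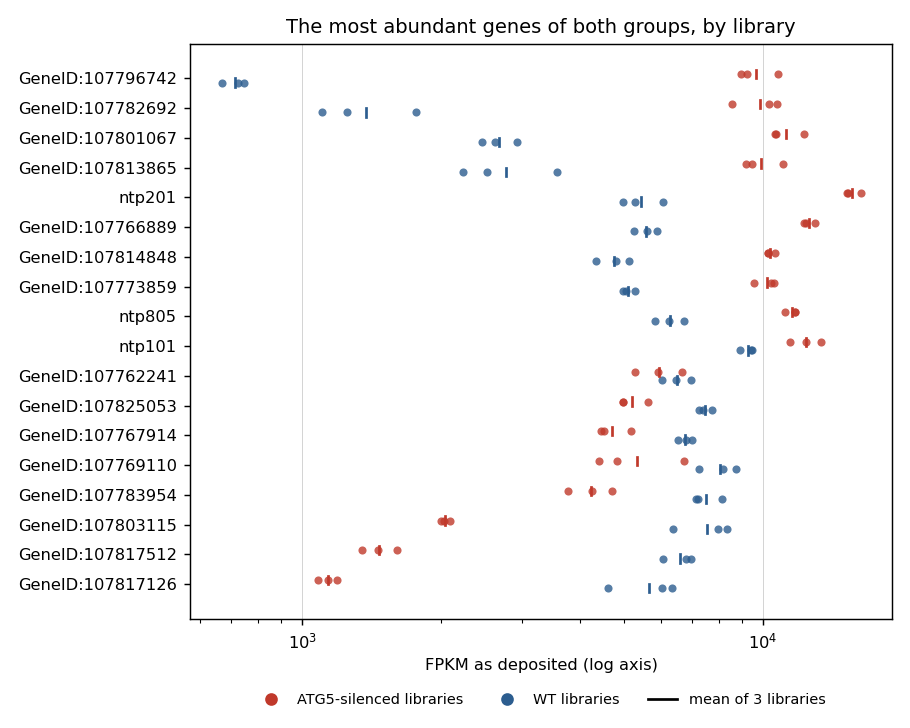
FPKM as deposited (x axis, log scale) in each *ATG5*-silenced library (red) and WT library (blue) for the genes that ranked in the 10 most abundant of either group, with the mean of 3 libraries as a bar. *ntp201* reached 15180 to 16265 FPKM in the silenced libraries against 4959 to 6048 in WT, while GeneID:107817126 stood at 1080 to 1190 against 4602 to 6327.

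The pollen and pollen tube list was split. Of its 12 tested members 5 were higher and 4 lower by adjusted p, with a median log2 change of -0.14. The members that fell were profilins, which bind actin monomers, and the pectin methylesterase of the tube wall. *PRO2* had 414, 464 and 433 FPKM against 1226, 1109 and 1145 in WT (log2 change -1.05, SE 0.074, adjusted p = 6.15e-05). *PRO1* had 271, 320 and 305 against 764, 691 and 787 (log2 change -0.97), and *PRO3* had 526, 571 and 526 against 882, 828 and 926 (log2 change -0.34, adjusted p = 0.00409). So all 3 profilins fell without overlap, by unequal amounts. *PPME1*, the pectin methylesterase, had 2517, 2280 and 2088 FPKM against 4568, 4602 and 3840 (log2 change -0.56, adjusted p = 0.00916). Besides the *ntp* genes, the rises were those of *Risap*, a pollen tube protein of membrane traffic (204, 195 and 174 against 167, 170 and 154 FPKM, log2 change 0.58), and of *PIP5K6-1*, a kinase that makes phosphatidylinositol bisphosphate (7.94, 8.4 and 8.35 against 6.73, 5.56 and 7.5, log2 change 0.65). For both genes the gap in FPKM as deposited was narrow, and *PIP5K6-1* did not pass without the scaling (adjusted p = 0.0744).

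The named genes with the largest rises included a cyclin-dependent kinase, a gibberellin-inactivating enzyme and a MYB transcription factor. Only 420 of the tested genes carried a name in the reference, and of these 19 were called higher and 53 lower, with a median log2 change of -0.28, so the named set leaned lower than the transcriptome. *cdc2* (GeneID:107785170), a cyclin-dependent kinase, had 4.80, 6.23 and 5.19 FPKM against 0.69, 0.48 and 1.4 in WT (log2 change 2.51, SE 0.24, adjusted p = 0.000238). *T407* (GeneID:107771624) had 20.8, 21.27 and 19.91 FPKM against 4.52, 5.13 and 6.4 (log2 change 2.22, SE 0.12, adjusted p = 2.49e-05). In both cases each silenced library exceeded the highest WT library at least 3-fold in FPKM. *GA2ox3* (GeneID:107792942), a gibberellin 2-oxidase that inactivates gibberellins, had 32.87, 34.0 and 33.23 FPKM against 13.44, 10.21 and 13.6 (log2 change 1.75, SE 0.11, adjusted p = 4.55e-05). *mybAS2*, a MYB transcription factor, had 29.04, 31.27 and 34.39 FPKM against 15.91, 15.83 and 12.5 (log2 change 1.43). *RAB5*, a small GTPase of endosomes, had 8.58, 6.87 and 8.26 FPKM against 3.54, 3.69 and 4.6 (log2 change 1.26). Silenced libraries were tight for *GA2ox3* and all groups stayed apart. The other 4 of the 10 largest rises with a name were *CIP2a* (62.0 to 113 FPKM against 26.3 to 32.2, log2 change 1.95), *RISP5* (29.3 to 37.0 against 10.8 to 16.6, 1.67), *ACRE271* (5.35 to 6.11 against 1.77 to 2.7, 1.56) and *FNR*, a ferredoxin-NADP reductase (5.68 to 6.97 against 2.6 to 3.25, 1.32), beside *ntp201* above.

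**Figure D4:**
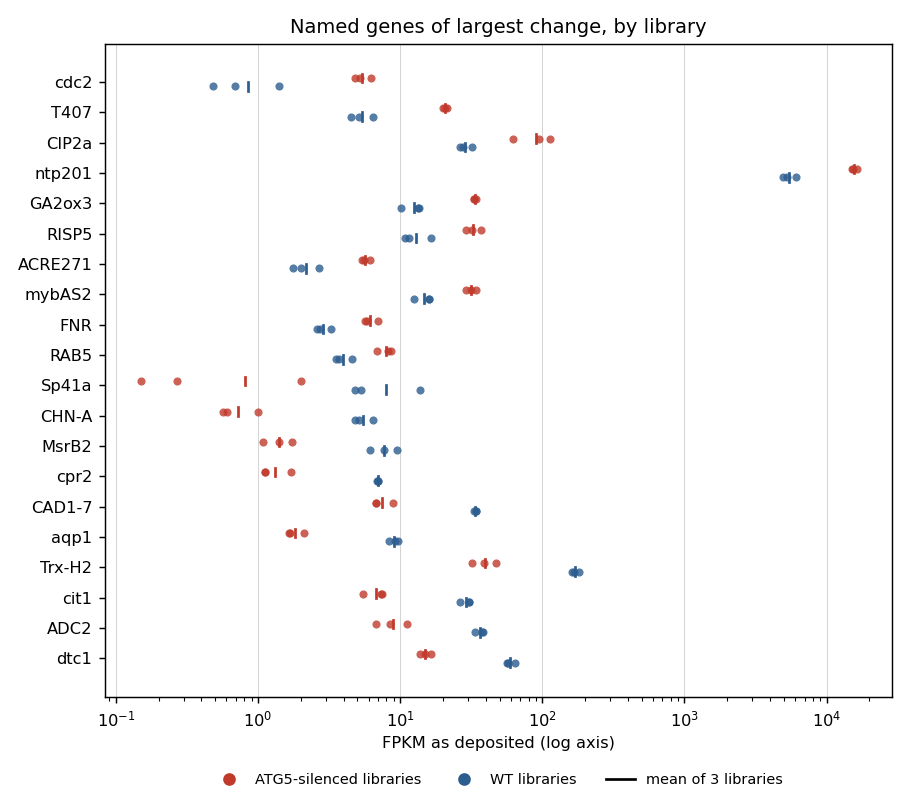
FPKM as deposited (x axis, log scale) in each *ATG5*-silenced library (red) and WT library (blue) for the 10 named genes with the largest rise and the 10 with the largest fall, with the mean of 3 libraries as a bar. The groups do not overlap for any of the 20 genes, which is a condition of the choice, and *Sp41a* shows the widest spread within groups, from 0.15 to 2.00 FPKM in silenced and from 4.8 to 13.85 in WT libraries.

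The largest named falls included enzymes of redox balance, organic acids and polyamines. *Trx-H2* (GeneID:107771931), a cytosolic h-type thioredoxin, had 32.27, 47.08 and 38.88 FPKM against 166.86, 160.77 and 181.4 in WT (log2 change -1.75, SE 0.12, adjusted p = 5.99e-05). *MsrB2*, a methionine sulfoxide reductase that repairs oxidized proteins, had 1.08, 1.41 and 1.74 FPKM against 9.46, 7.64 and 6.1 (log2 change -1.83, SE 0.21). *cpr2*, an NADPH-cytochrome P450 reductase, had 1.12, 1.71 and 1.12 FPKM against 6.99, 7.0 and 6.9 (log2 change -1.79). The WT libraries agreed closely for *cpr2* and *Trx-H2*, and the silenced libraries lay 3-fold or more below them. *aqp1*, an aquaporin, had 1.66, 1.69 and 2.1 FPKM against 8.4, 9.16 and 9.7 (log2 change -1.77), and *CAD1-7* had 6.81, 6.77 and 8.85 against 33.94, 34.26 and 33.1 (log2 change -1.78).

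The list of redox and iron genes held 7 lower and 1 higher of 11 tested members, with a median log2 change of -0.69. All 420 tested genes with a name held 155 lower and 76 higher by adjusted p, with a median of -0.28. Besides *Trx-H2* and *MsrB2*, *GME1*, a GDP-mannose epimerase on the route to ascorbate, had 23.89, 25.54 and 28.38 FPKM against 104.43, 107.56 and 90.5 (log2 change -1.59, SE 0.11). Ferritin *FER1*, the iron store, fell from 25.8, 25.15 and 22.6 FPKM in WT to 9.1, 12.86 and 11.2 (log2 change -0.78). The member that rose was *cat3*, a catalase, with 197, 204 and 218 FPKM against 141, 148 and 162 (log2 change 0.82, adjusted p = 0.000106).

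Of 12 tested genes of glycolysis and organic acid metabolism, 8 were lower and 1 was higher by adjusted p, 3 did not pass, and 5 of the lower ones passed the 2-fold rule, with a median log2 change of -0.71. For comparison, 155 of the 420 named genes tested were lower by adjusted p, and 53 were called lower. *cit1*, a citrate synthase, had 5.46, 7.4 and 7.28 FPKM against 30.57, 26.36 and 30.3 in WT (log2 change -1.71, SE 0.12, adjusted p = 6.76e-05). *dtc1*, a carrier of di- and tricarboxylates across the inner mitochondrial membrane, had 14.91, 13.83 and 16.42 FPKM against 64.06, 56.22 and 56.9 (log2 change -1.59). *enolase* of the glycolytic chain had 78.18, 78.83 and 76.99 FPKM against 201.04, 205.69 and 211.2 (log2 change -1.04, SE 0.063). The spread within groups was a small part of these gaps. Pyruvate decarboxylase *PDC2* (log2 change -1.05) and *GAPC1*, a cytosolic glyceraldehyde-3-phosphate dehydrogenase (log2 change -1.12), were called lower as well. *IDH* went up by 0.48 on the log2 scale, which did not pass on FPKM as deposited (adjusted p = 0.187).

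Sugar genes went in both directions, also among the enzymes that phosphorylate hexoses. The 3 called genes of the list were such enzymes and all lower. *Hxk1a*, a hexokinase, had 54.97, 54.85 and 62.1 FPKM against 186.95, 193.86 and 189.1 (log2 change -1.37, SE 0.075), *FRK2*, a fructokinase, had 94.83, 105.2 and 108.97 against 303.19, 318.07 and 304.1 (log2 change -1.23), and *Hxk1* changed by -1.18. *FRK4*, the most abundant fructokinase, moved in the opposite direction, with 2445, 2565 and 2231 FPKM against 1623, 1596 and 1519 (log2 change 0.97, adjusted p = 0.000163). The sucrose phosphate phosphatase *SPP1* was higher (6.53, 7.98 and 8.54 against 4.48, 4.88 and 5.1 FPKM, log2 change 0.95) and the sucrose transporter *SUT3* was lower (119, 108 and 104 against 185, 192 and 179 FPKM, log2 change -0.39). Of 9 tested members 3 were higher and 4 lower, and the list's median was -0.10.

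Polyamine synthesis, which starts from arginine or ornithine, held 3 lower genes of 5 tested and none higher. The tested genes with a name held 155 lower and 76 higher of 420. *ADC2*, an arginine decarboxylase, had 6.8, 8.53 and 11.22 FPKM against 38.49, 33.51 and 37.7 (log2 change -1.67, SE 0.16, adjusted p = 0.000218). *ADC1* had 12.0, 14.27 and 18.24 FPKM against 40.97, 36.25 and 47.2 (log2 change -1.12), and ornithine decarboxylase *ODC* had 16.85, 15.53 and 19.08 against 36.57, 44.85 and 48.1 (log2 change -0.96). None of these silenced libraries reached the WT range. *ADC1A* (log2 change 0.33) and *SAMDC* (-0.07) did not pass, and the list's median was -0.96. Among the 10 tested genes of amino acid and nitrogen metabolism 2 were higher and 2 lower. *Gln1-3*, a cytosolic glutamine synthetase, had 5.27, 7.16 and 6.0 FPKM against 16.7, 15.16 and 21.8 (log2 change -1.13), *SAMS1* (S-adenosylmethionine synthetase) changed by -0.54, nitrate reductase *NIA1* by 0.78 and *SAHH* by 0.41, the last not passing on FPKM as deposited (adjusted p = 0.427).

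Translation factors fell in number but by modest sizes. Of 17 tested, 11 were lower and 1 was higher by adjusted p, with 3 lower over 2-fold and a median log2 change of -0.63. Named genes as a whole held 155 lower and 76 higher of 420 tested, with a median of -0.28. Of the *eIF-4A* RNA helicases, which open the leader of messages, *eIF-4A-9* had 10.18, 8.51 and 7.97 FPKM against 31.04, 33.08 and 33.3 (log2 change -1.48, SE 0.12). *eIF-4A-14* had 12.93, 14.39 and 13.8 FPKM against 40.07, 38.55 and 39.1 (log2 change -1.14, SE 0.077). The cap-binding *eIF(iso)4E* had 42.52, 42.56 and 39.96 FPKM against 93.53, 96.68 and 94.1 (log2 change -0.82), and the poly(A)-binding protein *PABP* (GeneID:107784553) had 32.67, 37.77 and 38.4 against 84.12, 85.09 and 81.6 (log2 change -0.84). All 4 genes showed a clear gap. *eIF3a*, the member that was higher, rested on low values (2.87, 1.66 and 1.17 against 1.01, 1.08 and 0.9 FPKM) and was lost when any library except *ATG5*-silenced replicate 3 was left out, with adjusted p from 0.0546 to 0.0967. Tobacco is an allotetraploid, and members of such families are close copies between which the quantification could have split reads, so values of single copies are uncertain. Among 6 tested cytosolic ribosomal proteins *RPL23* (2.47, 1.55 and 3.05 against 6.48, 6.17 and 6.4 FPKM) and *RPS14* (1.01, 0.47 and 0.39 against 3.04, 2.03 and 2.2) were called lower, none was higher, and the median was -0.70. The plastid ribosomal protein *CL4* was higher, with 138, 131 and 127 FPKM against 92.3, 100.3 and 101.9 (log2 change 0.78).

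Chaperones and proteases held falls but no rises by adjusted p, and subunits of the ubiquitin system did not move as a group. *hsp90* had 21.74, 24.22 and 23.19 FPKM against 83.8, 91.58 and 58.0 (log2 change -1.36, SE 0.19), and *NtHsp70* had 52.75, 49.69 and 54.64 against 122.27, 134.16 and 115.9 (log2 change -0.88). In the endoplasmic reticulum, the chaperone *BIP2* had 2.08, 2.19 and 2.54 FPKM against 7.87, 11.47 and 5.5 (log2 change -1.31). WT values of *hsp90* and *BIP2* were spread, and the lowest still lay above every silenced library. By adjusted p, 3 of 7 tested endoplasmic reticulum chaperones and 3 of 5 cytosolic and organellar ones were lower and none was higher, with medians of -0.83 and -0.50. The 420 tested genes with a name held 155 lower and 76 higher by this rule, with a median of -0.28. Of 4 tested proteases 3 were called lower and none was higher, beside 53 called lower and 19 called higher of the 420 named genes. The cysteine protease *NTCP-23* had 3.14, 4.7 and 4.51 FPKM against 17.46, 17.3 and 13.5 (log2 change -1.53), and the vacuolar processing enzymes *NtVPE-3* and *NtVPE-1a*, which mature vacuolar proteins, changed by -1.44 and -1.08. Of 8 tested proteasome and ubiquitin genes only *cul1B*, a cullin scaffold of ubiquitin ligases, passed after the median scaling, with 16.92, 17.04 and 15.92 FPKM against 10.64, 10.79 and 10.3 (log2 change 0.98). On FPKM as deposited 4 others of this list were lower, *cul1A* among them.

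**Figure D5:**
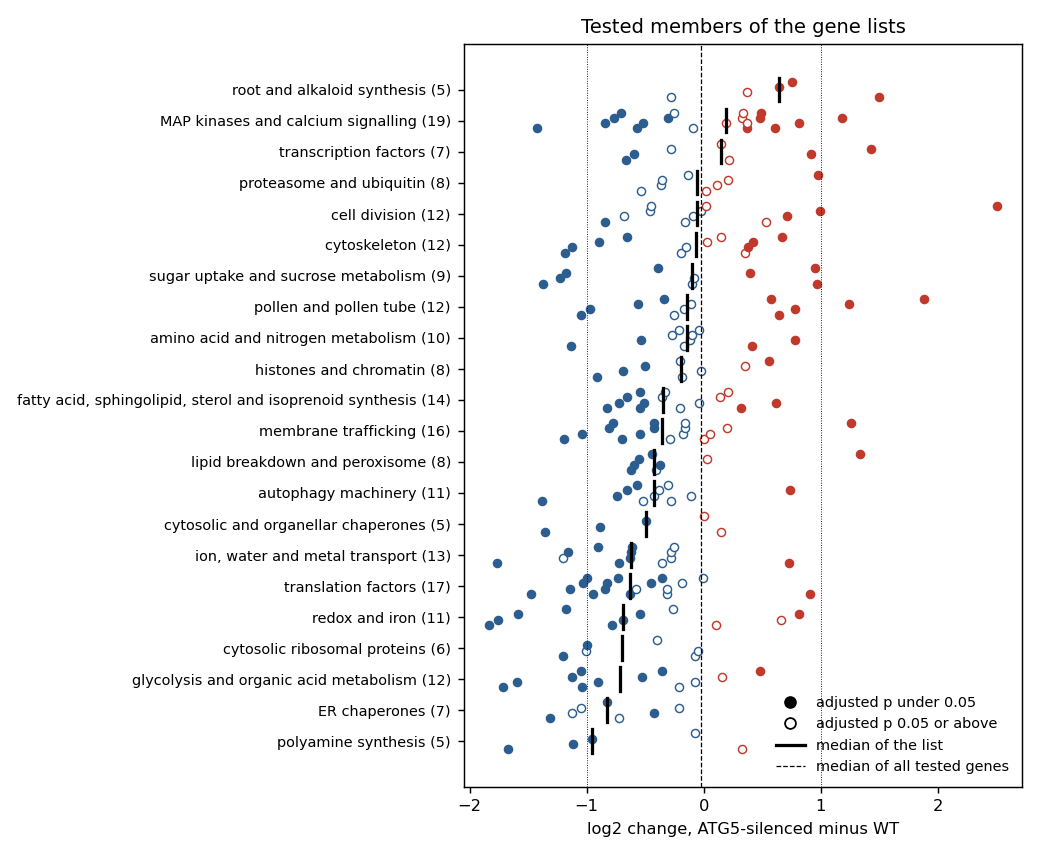
Log2 change of *ATG5*-silenced minus WT (x axis) for each tested member of the 22 gene lists with at least 5 tested genes, filled where the adjusted p was under 0.05, with the list median as a bar, the median of all tested genes as a dashed line at -0.02 and dotted lines at 2-fold. Medians ran from -0.96 for polyamine synthesis to 0.64 for root and alkaloid genes, and 20 of the lists hold members on both sides of 0. The lists hold named genes alone, and the median of all 420 tested genes with a name was -0.28.

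Membrane traffic and the cytoskeleton showed falls among some of their most abundant members. Of 16 tested trafficking genes 8 were lower and 1, *RAB5*, was higher, beside 155 lower and 76 higher of 420 named genes. *SAR1*, the GTPase that forms COPII vesicles at the endoplasmic reticulum, had 45.56, 44.41 and 44.14 FPKM against 117.23, 115.44 and 121.4 (log2 change -1.04, SE 0.067). Of the *Rab8* GTPases, which act in secretion to the plasma membrane, *Rab8-4* had 23.6, 23.61 and 21.41 FPKM against 67.74, 68.51 and 66.8 (log2 change -1.20) and *Rab8-5*, the most abundant, had 139, 138 and 148 against 308.1, 328 and 318 (log2 change -0.81). The libraries of a group lay close together for each of these genes. *Nt-rab7a*, a GTPase of late endosomes and the vacuole, changed by -0.70 and the list's median was -0.36. The 12 cytoskeletal genes were divided, 3 higher and 4 lower with a median of -0.06. *Actin-103* had 51.8, 49.76 and 51.74 FPKM against 152.06, 149.14 and 147.0 (log2 change -1.19, SE 0.072) and the alpha-tubulin *BYtuba* had 262, 274 and 285 against 513, 514 and 638 (log2 change -0.65). *TUB8*, the most abundant beta-tubulin, had 1851, 1760 and 1451 FPKM against 1374, 1429 and 1251 (log2 change 0.67, adjusted p = 0.00425). *Actin-93*, with 410, 351 and 382 FPKM against 355, 360 and 409, overlapped on FPKM as deposited (adjusted p = 0.813) and passed after the median scaling (log2 change 0.38, adjusted p = 0.0101).

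Signalling genes went in both directions. Of 19 tested MAP kinases and calcium-signalling genes 6 were higher and 7 lower, and the list's median of 0.19 turned to -0.05 on FPKM as deposited. The rises of *MPK11*, *MPK12*, *CDPK13* and *NtMKP1* did not pass on FPKM as deposited (adjusted p from 0.05315 to 0.8159). *MEK2*, a MAP kinase kinase, had 7.55, 9.3 and 10.01 FPKM against 33.69, 33.34 and 27.4 (log2 change -1.42, SE 0.14), while *SIPK*, a MAP kinase of the salicylate and wound response, had 8.48, 9.96 and 10.21 against 6.83, 6.02 and 7.3 (log2 change 0.82, adjusted p = 0.000810). *MPK9*, another MAP kinase, had 3.04, 3.1 and 3.12 FPKM against 1.34, 1.47 and 1.6 (log2 change 1.18). *CBL2*, a calcium sensor, had 56.0, 58.8 and 58.3 FPKM against 122, 116 and 123 (log2 change -0.70). *MEK2* and the MAP kinases *SIPK* and *MPK9* thus had opposite signs. In the hormone list, *GA2ox3* was joined by *TEFE*, an enzyme of ethylene formation, which had 0.58, 0.08 and 0 FPKM against 3.75, 1.99 and 2.0 (log2 change -2.04, SE 0.40, adjusted p = 0.00516). Of 7 tested transcription factors 2 were higher and 2 lower, *BZI-1* rising by 0.91 and *NtERF5* (39.13, 41.35 and 44.08 FPKM against 77.89, 78.19 and 98.8) changing by -0.66.

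Lipid synthesis genes moved in small steps, without a call, and lay close to the named genes as a whole. Of 14 tested genes of fatty acid, sphingolipid, sterol and isoprenoid synthesis 6 were lower and 2 higher. Their median log2 change was -0.34, beside -0.28 for all tested genes with a name. Of those 420 named genes, 155 were lower and 76 higher by adjusted p. *HMGR2*, which makes mevalonate for sterols, had 243, 223 and 209 FPKM against 461, 495 and 470 (log2 change -0.72) and *HMGR1* changed by -0.51. *FAD3*, a fatty acid desaturase, had 471, 471 and 437 FPKM against 452, 464 and 496, so that its 0.32 after scaling (adjusted p = 0.00739) became -0.03 as deposited. In the list of lipid breakdown and the peroxisome, 5 of 8 were lower, among them *NtMFP* (log2 change -0.55) of beta-oxidation and the import receptor *PEX5* (-0.62). *Acx1B*, an acyl-CoA oxidase at the first step of beta-oxidation, was the exception, with 4.41, 5.67 and 3.38 FPKM against 1.77, 1.94 and 2.1 (log2 change 1.33, adjusted p = 0.00132).

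Of 13 tested transport genes, 7 were lower and 1 was higher by adjusted p, 2 were called lower, and the median was -0.62. Among the 420 tested genes with a name, 155 were lower and 76 higher, with a median of -0.28. The proton pump *nha1*, the most abundant, had 966, 955 and 1003 FPKM against 1968, 1999 and 1792 (log2 change -0.62, SE 0.082, adjusted p = 0.000866). The vacuolar aquaporin *NtTIP1:1* had 0.70, 0.88 and 1.06 FPKM against 2.76, 2.73 and 4.0 (log2 change -1.16), and the outer mitochondrial channel *NtVDAC2* changed by -0.91. In the list of cell division genes, *cdc2* was followed by *CdkA:4* (1.28, 1.64 and 1.51 against 0.70, 0.68 and 0.70 FPKM, log2 change 1.00) and the mitotic cyclin *CycB1* (1.15, 1.7 and 1.12 against 0.89, 0.88 and 0.7, log2 change 0.71), while *CdkB1-1* was lower (-0.84). The last 2 did not pass in 2 and 3 of the fits that left out a library. Over the 12 tested genes 3 were higher and 1 lower with a median of -0.06, and of 8 histone and chromatin genes 1 was higher and 3 lower.

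Of 4 tested chitinases, glucanases and pathogenesis-related genes 3 were called lower and none was higher, while markers of other tissues went in both directions. Among the 420 named genes tested, 53 were called lower and 19 higher. *CHN-A*, a chitinase, had 0.61, 1.0 and 0.57 FPKM against 5.17, 6.47 and 4.8 in WT (log2 change -2.08, SE 0.21, adjusted p = 0.000256). *Sp41a*, a glucanase known from the style, had 2.00, 0.15 and 0.27 FPKM against 13.85, 5.32 and 4.8 (log2 change -2.64, SE 0.68, adjusted p = 0.0190), and its adjusted p was 0.0563 and 0.0668 without *ATG5*-silenced replicate 2 or 3. The related *sp41b* had 0.45, 0.04 and 0 FPKM against 2.07, 1.21 and 0.9 (log2 change -1.45). Of the 24 green tissue markers, 9, 5 and 5 were above 0 in the *ATG5*-silenced libraries and 20, 16 and 18 in the WT libraries, and *CAB21*, a light-harvesting protein, had 0.11, 0.06 and 0.06 FPKM against 1.91, 1.18 and 0.9 (log2 change -1.58). The whole list summed to 6.85, 7.26 and 6.24 FPKM in silenced and 10, 6.78 and 6 in WT libraries, which overlap. *FNR*, which rose as given above, was the largest part of the silenced sums, and without it the sums were 0.29 to 1.17 FPKM in silenced and 3.4 to 7.26 FPKM in WT libraries. Among the green markers *CHLI*, *POR1*, *PSBP1* and a copy of *PsbO* were listed at 0 in all 6. The 8 markers of anther wall and other floral tissue summed to 0.10 to 0.49 FPKM against 0.80 to 2.14, with *STIG1* of the stigma listed at 0 in the silenced libraries and at 0.61, 0.32 and 0.1 in WT, and *SEP3* and *NFL1* at 0 in all 6. WT replicate 1 had the highest sum of the green and of the floral markers and the highest *Sp41a*. Whether other tissue has a part in the differences of low transcripts between the groups was not tested. Of 5 tested root and alkaloid genes 3 were higher and none lower, led by the transporter *NtMATE2* (1.94, 2.84 and 1.67 against 0.70, 0.36 and 0.9 FPKM, adjusted p = 0.00257). By adjusted p, 76 of the 420 named genes tested were higher. The pass of *NtMATE1* (adjusted p = 0.0492) was lost on FPKM as deposited (0.201), at equal totals, under quantile normalization and when any library except *ATG5*-silenced replicate 2 was left out (0.0782 to 0.132). By level that list rested on *NtMATE* (50.68, 52.85 and 53.87 against 39.81, 40.14 and 48.9 FPKM, log2 change 0.64), which is far above the alkaloid enzymes of the list, and *PMT2*, *PMT4* and *BBLa* were listed at 0 in all 6.

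Unannotated transcripts reached the level of the major pollen messages. Transcript 4913 had 4069, 4105 and 4534 FPKM in *ATG5*-silenced pollen against 649, 661 and 620 in WT (log2 change 3.07, SE 0.073, adjusted p = 2.06e-06). Transcript 5267 had 3149, 3199 and 2299 FPKM against 133, 118 and 99.6 (log2 change 4.97, SE 0.18, adjusted p = 7.62e-06), and transcript 11303 had 2328, 1945 and 2139 against 800, 779 and 883 (log2 change 1.74). The libraries of a group were close together for these transcripts. Among the falls, transcript 17689 had 954, 931 and 1020 FPKM against 3039, 2731 and 2251 (log2 change -1.10), and transcript 25442 had 332.8, 359.9 and 411.1 against 1395, 1385 and 1099 (log2 change -1.45). Transcript 21258 had 0.95, 110.37 and 22.61 FPKM against 3592.88, 590.14 and 728.6, a spread that gave a log2 change of -5.91 with an SE of 1.76 (adjusted p = 0.0386). It did not pass when any single library other than *ATG5*-silenced replicate 2 was left out (adjusted p from 0.0524 to 0.112). In total the unannotated transcripts held 10.04%, 11.06% and 10.55% of the FPKM in silenced and 9.82%, 8.62% and 8.93% in WT libraries (10.6 ± 0.51% and 9.12 ± 0.62%, SD, n = 3 each, exact permutation p = 0.1, the smallest possible).

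Some transcripts were listed at 0 in every library of a group. In all, 221 unannotated and 6 annotated IDs were at 0 in the 3 WT libraries and at 1 FPKM or more in the 3 *ATG5*-silenced ones, and 45 of the unannotated ones had a mean over 10 FPKM. Transcript 26086 had 261.15, 1388.62 and 429.33 FPKM and transcript 6350 had 185.14, 290.11 and 220.18 FPKM in silenced pollen. The highest of the 6 annotated ones was GeneID:107825910, with 11.03, 10.92 and 10.51 FPKM. The reverse pattern held for 39 IDs, 9 of them annotated. GeneID:107831913 had 1816.37, 726.89 and 594.8 FPKM in WT and 0 in all silenced libraries, and GeneID:107777622 had 40.03, 32.34 and 35.3 FPKM and 0. A value of 0 here means only that the file lists 0, so no fold is given for these IDs. Over all IDs, 38341, 39147 and 39119 were above 0 in *ATG5*-silenced and 41279, 40397 and 38695 in WT libraries (38869 ± 457 and 40124 ± 1314, SD, n = 3 each). These groups overlapped (exact permutation p = 0.3), through WT replicate 3 alone. That library is listed with 1 decimal and the other WT and *ATG5*-silenced libraries with 2, so more of its smallest values can be listed as 0. The difference in means was -1969 without WT replicate 3 and -677 without WT replicate 1. These counts therefore cannot decide whether the groups differ. Counts with every library rounded to 1 decimal are not given here. The count at 1 FPKM or more depended on the scaling, with 18733, 19352 and 19350 against 19598, 19617 and 20764 in WT on FPKM as deposited, and 20563, 20859 and 20845 against 19658, 19755 and 20080 after scaling (exact permutation p = 0.1 for the scaled counts, the smallest possible).

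The *ATG2*-silenced libraries give a second reference that also carries an RNA interference construct against an autophagy gene. A direct limma fit of *ATG5*-silenced against *ATG2*-silenced pollen, chosen after the data were seen, called 3905 genes higher (14.6% of 26672 tested) and 2827 lower (10.6%) in *ATG5*-silenced pollen. It used the same *ATG5*-silenced libraries as the comparison with WT, and the genes given here had been picked in that comparison. A deviation of these libraries would return in both fits, so a shared direction is not independent support. *ntp201* had a mean of 15584 FPKM in *ATG5*-silenced and 5736 in *ATG2*-silenced pollen (log2 difference 1.92, adjusted p = 1.51e-05). *Trx-H2* had means of 39.4 and 221 FPKM (log2 difference -2.01, adjusted p = 7.04e-05) and *cit1* means of 6.71 and 39.3 FPKM (-2.02, adjusted p = 4.90e-05). *cdc2*, *T407*, *GA2ox3* and *mybAS2* were called higher with log2 differences of 2.16, 2.04, 1.64 and 1.46, and *aqp1*, *CAD1-7*, *ADC2* and *PRO2* were called lower with -2.09, -1.96, -1.66 and -1.11. Not every change against WT had such a counterpart. *hsp90* had means of 23.1 and 35.4 FPKM with a log2 difference of -0.14 (adjusted p = 0.217), *Sp41a* means of 0.807 and 1.93 FPKM (-0.84, adjusted p = 0.308) and *TEFE* means of 0.22 and 0.733 FPKM (-0.72, adjusted p = 0.144). *ATG5* itself differed by -1.46 (adjusted p = 0.000577) and *JOKA2* by -1.21 (adjusted p = 0.00135).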

How the data were processed

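Total RNA of bicellular pollen was extracted with a plant RNA kit, messenger RNA was selected and libraries were sequenced on an MGI instrument. Per the labels and the study's methods, the authors filtered reads with SOAPnuke, aligned them with HISAT2 and Bowtie 2 to the Ntab-TN90 genome and transcripts (Annotation Release 100), and computed the deposited FPKM with RSEM. Tool versions are not given in the sources used here. Each library has a table of its own, joined here by gene ID. WT replicate 3 and the *ATG2* libraries carry 1 decimal, the other 5 libraries 2 decimals. Total FPKM ran from 904845 to 963914 in the *ATG5*-silenced and WT libraries, and the precision that depth gives cannot be stated without counts.

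Libraries were scaled by the median of ratios over 14463 genes above 1 FPKM in all 6 libraries, with factors set relative to the WT mean factor. Genes with at least 0.5 FPKM in 3 libraries were tested in limma 3.58.1 (R 4.3.3, trend and robust options) on log2(scaled FPKM + 0.5), two-sided, with Benjamini-Hochberg adjustment over all 25734 genes. The pseudocount of 0.5 understates the change of low genes. On simulated data with 200 changed genes of 25734, the fit recovered 72% at a log2 change of 1.3 and 90% at 2.6, and called 3 unchanged genes. The changed genes lay above a minimum WT level and were split evenly between rises and falls, with normal noise. In the data 51.5% of genes passed the adjusted p, so the simulation cannot tell how the scaling or false calls behave there.

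Gene names came from a RefSeq table of another tobacco build (ASM71507v2, cultivar K326), used for names alone, since 53952 of 69099 annotated IDs matched by gene ID and 1081 had a name. The 32 gene lists (581 genes) were written from these names, and the genes compared and the lists were chosen with earlier results of these data known. The text names *ATG5* and *ATG2*, the 10 largest called changes in each direction among named genes with a mean of at least 5 FPKM in a group and no overlap, the 10 most abundant genes of either group, up to 4 members of each list by smallest p, and the 3 most abundant called transcripts of each kind without a name. Other members named (among them *ATG6*, *ATG9*, *ATG10*, *SAMDC*, *HMGR1*, *PRO3* and *CdkB1-1*) and the IDs listed at 0 in a group were picked after their values were seen. The planned comparison of closest protein copies was not run, because no protein sequences were used here. Same-numbered libraries did not deviate together (correlations of 0.012, -0.016 and 0.034), so the groups were not treated as paired.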

Additional observations from a re-analysis of the deposited data

How the results depend on the processing

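Over pseudocounts of 0.1 and 1, no filter, a filter at 1 FPKM, rounding to 1 decimal, scaling on annotated genes, all 9 libraries in the fit and eBayes without trend, the count of genes called higher ran from 3392 to 4431 and of genes called lower from 1588 to 2789. Scaling moved the split most: genes called higher and lower numbered 2861 and 3935 on FPKM as deposited, 3053 and 3491 at equal totals (TPM) and 3324 and 2805 after quantile normalization. On FPKM as deposited 26 list members were higher and 164 lower, beside 42 and 108 after the median scaling, and *FAD2* (-0.22), *FAD3* (-0.034), *GDI* (-0.30), *NtSYP22* (-0.34) and *cul1A* (-0.24) changed sign. Under quantile normalization GeneID:107762241 (-0.54) and *ntp101* (-0.26) did so. The difference in detected genes was -1255 above 0 FPKM and 925 at 1 scaled FPKM or more, whereas at 1 FPKM as deposited all silenced libraries (18733 to 19352) were below all WT libraries (19598 to 20764). Leaving out 1 library gave 3150 (without *ATG5*-silenced replicate 2) to 3977 genes higher (without WT replicate 3) and 1719 (without WT replicate 1) to 2250 lower (without *ATG5*-silenced replicate 3), 38 to 40 list members higher and 86 to 99 lower, an *ATG5* difference of -1.38 to -1.10 FPKM, a difference in detected genes of -1969 to -677, in the share of the 100 most abundant genes of 6.47 to 7.09 percentage points and in the unannotated share of 1.17 to 1.77 points. No gene was called in opposite directions in any of these fits. With the replicate block, 3939 genes were called higher and 2148 lower, and of 285 named and list genes 14 lost and 7 gained a pass at adjusted p under 0.05. The cause of these differences was not tested.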

Other observations

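Calls were also counted over neighbouring genes, with no test. Of 4323 pairs of neighbours (by the order in the RefSeq table of cultivar K326) with both genes tested, 36 had both called higher, 35 both lower and 50 were split. Among neighbours of a gene called higher 9.8% were called higher, beside 8.5% of all genes in such pairs, and for falls the values were 10.8% and 7.52%.

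Several limits apply to all of these values. FPKM are relative within a library, so a rise of very abundant transcripts lowers the listed value of the rest, and the choice of scaling sets how many genes count as lower. Genes under about 1 FPKM, *ATG5* and most autophagy genes near it, rest on low values whose read counts are unknown. Names cover 420 of the 25734 tested genes, and 22 of the 32 lists hold at least 5 tested members.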
